A study of Drosophila melanogaster with 48 samples.

Results

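The comparison described here sets wing imaginal discs of a Ubx line against wing imaginal discs of an eGFP line in Drosophila melanogaster larvae that were kept at 19 °C, where the transgene of each line was off. Its members are the 4 Ubx arrays and the 4 eGFP arrays of late wandering larvae at 19 °C, chosen by their labels, which makes 8 of the 48 arrays of the series. The Ubx larvae were w; UAS-UbxIa / + ; nabGal4NP3537 / Tub-Gal80ts and the eGFP larvae were w; UAS-eGFP / + ; nabGal4NP3537 / Tub-Gal80ts. The white mutation, the nabGal4NP3537 driver and the Tub-Gal80ts repressor were thus shared by both lines, and in the usual order of a fly genotype the UAS transgenes lie on the second chromosome and the driver and repressor on the third. Whether the stocks shared the rest of their genetic background is not stated in the labels. Each sample pooled about 15 to 20 animals, and larvae were staged by the colour of the gut. The other groups of the series, used here only to ask where the same differences recur, were larvae at 29 °C (16 h after the shift that turns the transgene on), prepupae and pupae at 19 °C and prepupae and pupae at 29 °C, with 4 arrays of each line. The series includes the 19 °C samples to separate effects of Ubx from differences that the fly lines already carry.

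Ubx is the Hox gene that makes the third thoracic segment of the fly form a haltere in place of a wing, and wing cells forced to express it take on haltere features. In the Gal4/UAS system the yeast activator Gal4 drives any gene placed behind a UAS sequence. Gal80ts, a temperature-sensitive repressor, holds Gal4 inactive at the low temperature and releases it at the high one. With the repressor active, whatever differs between the lines is not assigned to Ubx by the design. The wing disc is the sac of epithelium in the larva that forms the wing and the body wall of the back, and its cells follow the steroid hormone ecdysone as the animal nears pupation.

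The arrays were close to each other. Across probe sets, the lowest correlation between replicate arrays was 0.9982 in the Ubx line and 0.9975 in the eGFP line, the lowest correlation between arrays of different lines was 0.9968, and array medians lay between 4.65 and 4.691 on the log2 scale. Defining genes of the wing disc were bright in both lines. The wing selector gene vg averaged 10.75 ± 0.05 in the Ubx line and 10.77 ± 0.03 in the eGFP line (log2, SD, n = 4 each), and nub, a gene of the wing pouch, averaged 11.27 ± 0.10 in the Ubx line and 11.36 ± 0.04 in the eGFP line. The posterior gene en averaged 10.89 ± 0.03 in the Ubx line and 10.93 ± 0.03 in the eGFP line. The glial gene repo, at 3.44 ± 0.07 in the Ubx line and 3.54 ± 0.15 in the eGFP line, and the synaptic gene nSyb, at 4.79 ± 0.09 in the Ubx line and 4.84 ± 0.11 in the eGFP line, lay below or near the array medians. Not all markers of other cell types were dim. The neuronal gene elav averaged 7.52 ± 0.23 in the Ubx line and 7.77 ± 0.20 in the eGFP line. The myoblast gene twi averaged 8.34 in the Ubx line and 8.18 in the eGFP line, and the fat body gene Lsp2 6.95 and 6.72. The driver locus nab, a transcriptional cofactor gene, averaged 8.24 ± 0.14 in the Ubx line and 8.16 ± 0.12 in the eGFP line (difference 0.08, SE 0.07, limma adjusted p = 0.991). The Hox gene Antp averaged 9.98 ± 0.11 in the Ubx line and 9.96 ± 0.07 in the eGFP line (adjusted p = 1). Ubx itself was not analysed here. In the eGFP line, replicate 3 had the highest mean level of the ecdysone response list, at 8.46 against 7.94 to 8.21 on the other arrays. Replicates 3 and 4 of that line were the lowest arrays for the cuticle genes amd, Vajk2 and Twdlbeta, and for some other genes that were higher in the Ubx line. The Cpr cuticle protein list stayed between 5.12 and 5.16 on all 8 arrays. Calls that were lost without eGFP replicates 3 and 4 together are named beside the ecdysone genes.

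Of 18769 probe sets, 264 (1.41%) differed between the lines at a limma adjusted p under 0.05, which is termed called from here on. In the Ubx line 144 (0.767%) were higher and 120 (0.639%) were lower. Most differences were small. The median size among the calls was 0.429 on the log2 scale, with quartiles of 0.325 and 0.603, and the median size over all probe sets was 0.049. A change of at least 1.5-fold was reached by 75 calls (0.4% of all probe sets), of which 35 (0.186%) were higher and 40 (0.213%) lower in the Ubx line. In 246 of the 264 calls the 4 Ubx arrays and the 4 eGFP arrays did not overlap, beside the 1.41% of probe sets called. Over all probe sets 1154 (6.15%) did not overlap, and since the calls were chosen on the same difference, nothing is read from their count. Read through the brightest probe set of each gene, 186 of 11953 genes (1.56%) were called, 98 (0.82%) higher and 88 (0.736%) lower. Differences below are the Ubx line minus the eGFP line on the log2 scale, with the standard error (SE) of the limma model.

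The largest difference of any probe set was in Cyp4p2, a gene for a cytochrome P450, one of the haem enzymes that oxidise hormones, fatty acids and foreign compounds. Cyp4p2 read 4.69, 4.59, 4.98 and 4.67 on the Ubx arrays, against 9.73, 9.69, 9.76 and 9.65 on the eGFP arrays. The Ubx arrays lay at about the array median and the eGFP arrays far above it, with no overlap. The difference was -4.97 (SE 0.10, adjusted p = 7.29e-34), whose full size is limited by the dim Ubx values. Its neighbour in gene order, Cyp4p1, read 4.55, 4.59, 4.55 and 4.74 on the Ubx arrays, against 7.60, 8.04, 8.15 and 8.04 on the eGFP arrays. Cyp4p1 was again near the array median in the Ubx line only, with a difference of -3.35 (SE 0.10, adjusted p = 4.2e-28). For both genes the mean of the Ubx line was within 0.5 of the array medians, and the arrays do not show whether any transcript remained. Another gene of the subfamily, Cyp4p3, did not pass the test and was dim in both lines, at 3.58 ± 0.14 in the Ubx line and 3.56 ± 0.07 in the eGFP line (adjusted p = 1).

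The P450 list, gathered by gene symbol, also took in Cyp1 and Cyp40, which are not P450 genes and were not called. Cyp1, at 13.72 in the Ubx line and 13.70 in the eGFP line, raises the mean level of the list. Of its 83 measured genes, 3 were lower, 1 was higher and the other 79 did not pass the test. The called share was 4.82%, beside 1.56% of all genes. On chromosome 2 lay 46 of the 83, among them every called one, and 151 of all 4650 genes there were called. The median difference of the list was 0.014, against 0.005 over all genes, and the mean level of the list was 4.66 to 4.68 on the Ubx arrays and 4.73 to 4.80 on the eGFP arrays. Cyp4e2 read 8.86, 9.03, 9.06 and 8.91 on the Ubx arrays, against 9.51, 9.37, 9.74 and 9.49 on the eGFP arrays, and fell by 0.57 (SE 0.09, adjusted p = 1.88e-05). The 1 P450 gene that was higher was Cyp6a14, with 5.65, 5.37, 5.25 and 5.37 on the Ubx arrays, against 4.86, 5.06, 5.0 and 4.93 on the eGFP arrays (difference 0.45, adjusted p = 0.000224). The arrays of the lines did not overlap in either gene.

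Of the 34 glutathione S-transferase genes, whose enzymes couple glutathione to reactive compounds, 1 was higher and 1 was lower (5.88% called, beside 1.56% of all genes). GstT3, of the theta class, had the largest rise among genes read through their brightest probe set. It read 8.29, 8.11, 8.62 and 8.51 on the Ubx arrays, against 7.28, 7.59, 7.38 and 6.77 on the eGFP arrays, a difference of 1.13 (SE 0.12, adjusted p = 3.44e-09). All 4 Ubx arrays were above all 4 eGFP arrays. GstS1, one of the brighter genes of the disc, was lower by a small amount, with 12.53, 12.53, 12.57 and 12.53 on the Ubx arrays, against 12.69, 12.69, 12.74 and 12.77 on the eGFP arrays (difference -0.18, adjusted p = 0.00338). A fit to the 8 arrays alone lost the call of GstS1 (adjusted p = 0.0903). The UDP-glycosyltransferase genes, which attach sugars to small lipophilic molecules, also had 1 higher and 1 lower member of 35 (5.71%). With so few calls, nothing is read from the share of either list. Ugt36D1 fell by 0.33 (adjusted p = 7.05e-06). Ugt317A1 rose by 0.35 (adjusted p = 0.00929), but leaving out Ubx replicate 2 (adjusted p = 0.0577) or eGFP replicate 4 (adjusted p = 0.059) ended the call. None of the 15 esterase and ABC transporter genes was called by limma, and 2 had an unadjusted p under 0.05.

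**Figure D1:**
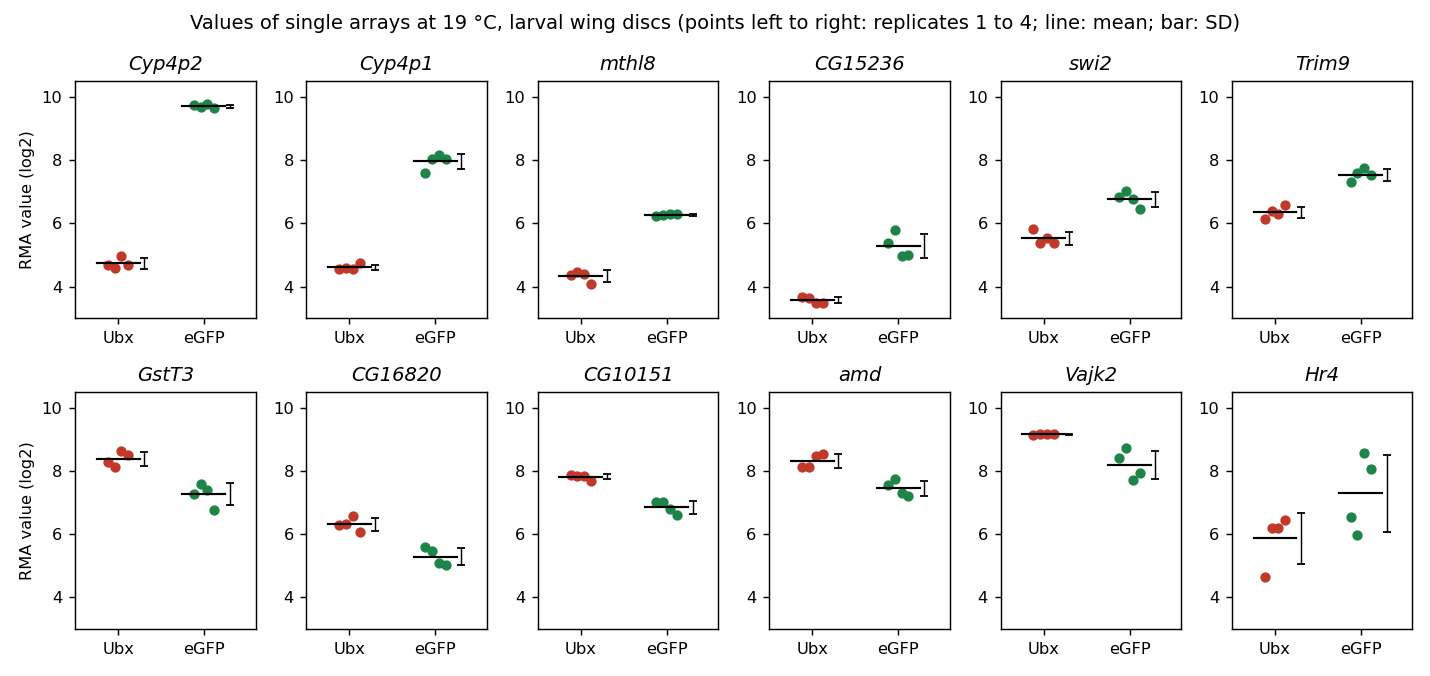
RMA values (log2, vertical axis) of 12 genes on the 4 Ubx arrays (left, red) and the 4 eGFP arrays (right, green) of larval wing discs at 19 °C, with the mean as a line and the SD as a bar. In Cyp4p2 the Ubx arrays lie between 4.59 and 4.98 and the eGFP arrays between 9.65 and 9.76, while in Hr4 the lines overlap.

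Both probe sets were called for mthl8, a gene for a methuselah-like member of the G protein-coupled receptors. One probe set read 4.38, 4.47, 4.41 and 4.07 on the Ubx arrays, against 6.24, 6.25, 6.28 and 6.30 on the eGFP arrays (difference -1.93, SE 0.17, adjusted p = 5.8e-11). The other gave -1.56 (adjusted p = 7.42e-10). The Ubx line was near the array median in both. A related receptor gene, mthl4, chosen after its values were seen, was higher in the Ubx line, with 9.39, 9.37, 9.27 and 9.45 on the Ubx arrays, against 8.75, 8.95, 8.72 and 8.72 on the eGFP arrays (difference 0.58, adjusted p = 3.34e-08).

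Further large falls were spread over genes of unrelated function. CG15236 read 3.67, 3.63, 3.49 and 3.49 on the Ubx arrays, against 5.39, 5.79, 4.96 and 5.01 on the eGFP arrays (difference -1.72, SE 0.13, adjusted p = 5.49e-13). The gene swi2 read 5.83, 5.37, 5.53 and 5.39 on the Ubx arrays, against 6.82, 7.01, 6.77 and 6.44 on the eGFP arrays (difference -1.23, SE 0.15, adjusted p = 3.48e-07). Trim9, which encodes a ubiquitin ligase of the tripartite motif family, read 6.15, 6.38, 6.31 and 6.57 on the Ubx arrays, against 7.30, 7.59, 7.74 and 7.52 on the eGFP arrays (difference -1.18, SE 0.11, adjusted p = 4.44e-10). In none of these 3 genes did the lines overlap. Rab9, a small GTPase gene of the route between late endosomes and the Golgi, fell by 0.80 (SE 0.09, adjusted p = 1.7e-08), and Nna1, a carboxypeptidase gene, fell by 0.80 (SE 0.17, adjusted p = 0.00328). The call of Nna1 was lost in a fit to the 16 larval arrays alone (adjusted p = 0.0655). A second probe set of Nna1 gave -0.11 and was not called. Lime fell by 0.72 (adjusted p = 0.000143), and its Ubx mean of 3.79 lay below the array medians. Among genes known only by a number, CG31705, CG30428, CG1894, CG32572 and CG4928 were lower by 0.73 to 0.97, and leaving out Ubx replicate 1 (adjusted p = 0.057) or eGFP replicate 3 (adjusted p = 0.0733) ended the call of CG4928. In a fit to the 8 arrays alone the calls of CG4928 (adjusted p = 0.135) and CG32572 (adjusted p = 0.0807) were lost. A second probe set of CG1894 gave 0.01 and was not called. The ribosomal gene mRpL18 was 8.42, 8.43, 8.39 and 8.42 on the Ubx arrays, against 9.03, 8.84, 9.04 and 8.95 on the eGFP arrays (difference -0.55, adjusted p = 8.07e-06). It was 1 of 2 calls among 69 mitochondrial ribosomal protein genes (2.9%, beside 1.56% of all genes). The other, mRpS18B, was higher by 0.17 (adjusted p = 0.0479) and stayed called without Ubx replicate 3 or eGFP replicate 3 only, among the 8 fits that each leave out 1 array.

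Of the 15 largest rises among genes with a symbol, read through their brightest probe set, 3 were in genes of the cuticle. amd, whose product resembles DOPA decarboxylase and acts in making insect cuticle, read 8.12, 8.12, 8.48 and 8.54 on the Ubx arrays, against 7.54, 7.73, 7.31 and 7.21 on the eGFP arrays (difference 0.87, SE 0.13, adjusted p = 2.3e-05). The lines did not overlap in amd. The cuticle gene Vajk2 read 9.13, 9.16, 9.15 and 9.17 on the Ubx arrays, against 8.40, 8.71, 7.72 and 7.94 on the eGFP arrays (difference 0.96, SE 0.20, adjusted p = 0.00243). The Tweedle gene Twdlbeta read 6.71, 6.81, 6.58 and 6.64 on the Ubx arrays, against 6.39, 6.39, 5.30 and 5.99 on the eGFP arrays (difference 0.67, SE 0.14, adjusted p = 0.00433). In amd, Vajk2 and Twdlbeta alike, eGFP replicates 3 and 4 were the lowest arrays. Genes chosen for a rise are expected to be lowest on eGFP arrays. The same arrays were lowest for some rises outside the cuticle, namely CG16820, CG10151, CG17760 and CG4630, but not for others such as GstT3, Spn47C and Naglu. Without eGFP replicate 3 the call of Twdlbeta was lost (difference 0.43, adjusted p = 0.0818). Fits to the 8 arrays alone (adjusted p = 0.245) and to the 16 larval arrays alone (adjusted p = 0.11) lost it too. Without eGFP replicates 3 and 4 together the call of Vajk2 was lost as well (difference 0.60, adjusted p = 0.506), while amd stayed called (difference 0.68, adjusted p = 0.0175). Of the 76 Cpr cuticle protein genes 1 was higher and none was lower (1.32%, beside 1.56% of all genes). That gene, Cpr49Ah, averaged 6.66 ± 0.30 in the Ubx line and 6.10 ± 0.31 in the eGFP line (adjusted p = 0.0137), with overlapping arrays, and leaving out Ubx replicate 1 or 2 or eGFP replicate 3 or 4 ended the call (adjusted p 0.0829 to 0.156). So did fits to the 8 arrays alone (adjusted p = 0.24) and to the 16 larval arrays alone (adjusted p = 0.259).

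The remaining rises were in genes of other kinds. The noncoding RNA gene lncRNA:CR43242 was called in both of its probe sets, with 8.14, 8.01, 8.22 and 7.94 on the Ubx arrays, against 7.27, 7.08, 7.39 and 7.30 on the eGFP arrays of the brighter one (difference 0.82, SE 0.10, adjusted p = 1.93e-07). The serpin gene Spn47C, from a family of protease inhibitors, rose by 0.76 (SE 0.15, adjusted p = 0.00118). Naglu, the gene for a lysosomal N-acetylglucosaminidase, rose by 0.63 (SE 0.09, adjusted p = 1.56e-05). CG16820 was 6.28, 6.33, 6.56 and 6.07 on the Ubx arrays, against 5.58, 5.46, 5.10 and 5.01 on the eGFP arrays (difference 1.02, SE 0.12, adjusted p = 5.65e-08), and CG10151 was higher by 0.96 (SE 0.11, adjusted p = 7.99e-08). CG4630, CG15456, CG11170, CG17760, CG11158 and CG8944 rose by 0.60 to 0.69. Of these, CG17760 kept its call in 1 of the 8 fits that leave out an array, and CG11158 lost it without eGFP replicate 4 (adjusted p = 0.063). The TNF ligand gene egr was the single call among 16 apoptosis genes (6.25%, beside 1.56% of all genes), with a rise of 0.31 (adjusted p = 0.00383). The lines overlapped in egr, and its call was lost with the mean of its probe sets (0.21, adjusted p = 0.517), with all 48 arrays scaled by quantiles (adjusted p = 0.0593) and in a fit to the 8 arrays alone (adjusted p = 0.0903).

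Where the called genes lie in the genome differed greatly between the chromosomes. Genes of 13624 probe sets could be placed on a chromosome arm, including those of 210 of the 264 calls. On chromosome 2, 169 of 5219 probe sets were called (3.24%), 89 higher and 80 lower. On chromosome 3, 9 of 6115 probe sets were called (0.147%). Chromosome 2 thus held 80.5% of the placed calls with 38.3% of the placed probe sets, and chromosome 3 held 4.29% of the calls with 44.9% of the probe sets. Chromosome X had 28 calls of 2208 (1.27%), 17 higher and 11 lower, and the small chromosome 4 had 4 calls of 82 (4.88%). These shares describe probe sets, which are not independent of each other, and no test was made on them. The count on chromosome 3 reached 25 without eGFP replicate 2, and that on X fell to 17 without Ubx replicate 1.

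The contrast did not rest on the threshold alone. At an unadjusted p under 0.05, 11.8% of chromosome 2 probe sets, 7.97% of X probe sets and 3.91% of chromosome 3 probe sets differed. At the 1.5-fold level, 35 calls lay on chromosome 2, 13 on X and 3 on chromosome 3. The calls on chromosome 2 were not gathered at 1 place. With the genes of each arm divided in order into 5 bins of like gene number, the called share was 1.58% in the first bin of 2L, 5.19% in its middle bin and 2.48% in its last, and it lay between 2.87% and 4.11% in the bins of 2R. On 3L and 3R no bin exceeded 0.425%. Over all arms, 10 pairs of adjacent genes were both called, of which 6 had the same sign. Cyp4p2 and Cyp4p1 were one such pair. Another, CG4630 and CG4646, went opposite ways, with 0.69 for CG4630 and -0.67 for CG4646.

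**Figure D2:**
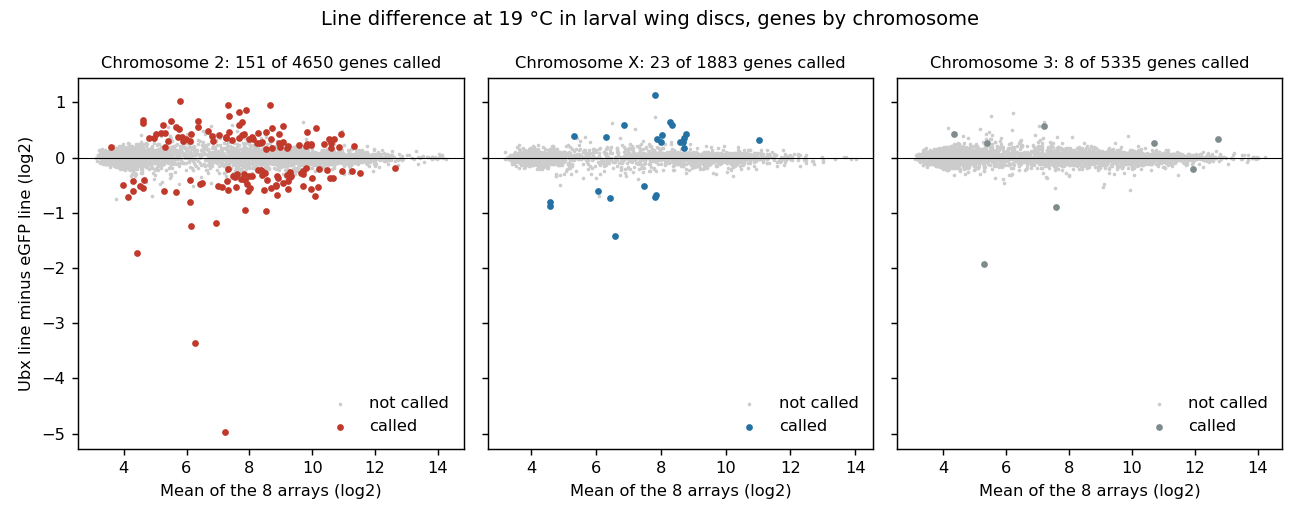
Each gene's difference between the lines (Ubx minus eGFP, log2, vertical axis) by its mean over the 8 arrays (log2, horizontal axis), for chromosomes 2, X and 3, with called genes in colour. Of the genes, 151 of 4650 were called on chromosome 2, 23 of 1883 on X and 8 of 5335 on chromosome 3.

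The 9 calls on chromosome 3 belonged to 8 genes, named here after their values were seen. Besides both probe sets of mthl8 they were CG1894 (-0.90), the amino acid transporter-like gene CG5535 (0.57), Cipc (0.42), the zinc finger gene jim (0.34), the choline transporter-like gene Ctl1 (0.27), Gbeta76C, the G protein beta subunit gene of the eye (0.26), and CHKov1 (-0.21). The called probe set of jim was tight across arrays, with 12.96, 12.89, 12.89 and 12.91 on the Ubx arrays, against 12.64, 12.62, 12.49 and 12.54 on the eGFP arrays (adjusted p = 4.73e-07). It was 1 of 3 probe sets of jim, of which the lowest gave 0.03. Second probe sets of CG1894 (0.01) and CHKov1 (-0.05) were not called.

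In separate arrays of the other comparisons the called share was again higher on chromosome 2 than on chromosome 3, by amounts that were not compared by a test. In prepupae at 19 °C, where 3.67% of all probe sets were called, the shares were 6.57% on chromosome 2, 4.71% on X and 2.11% on chromosome 3, which held 22.3% of the placed calls there. In pupae at 19 °C, with 1.99% of all probe sets called, they were 4.43% on chromosome 2, 1.81% on X and 0.442% on chromosome 3. In larvae at 29 °C, with the transgene on and 2.77% of all probe sets called, they were 5.38% on chromosome 2, 2.08% on X and 1.55% on chromosome 3, where 95 probe sets were called.

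**Figure D3:**
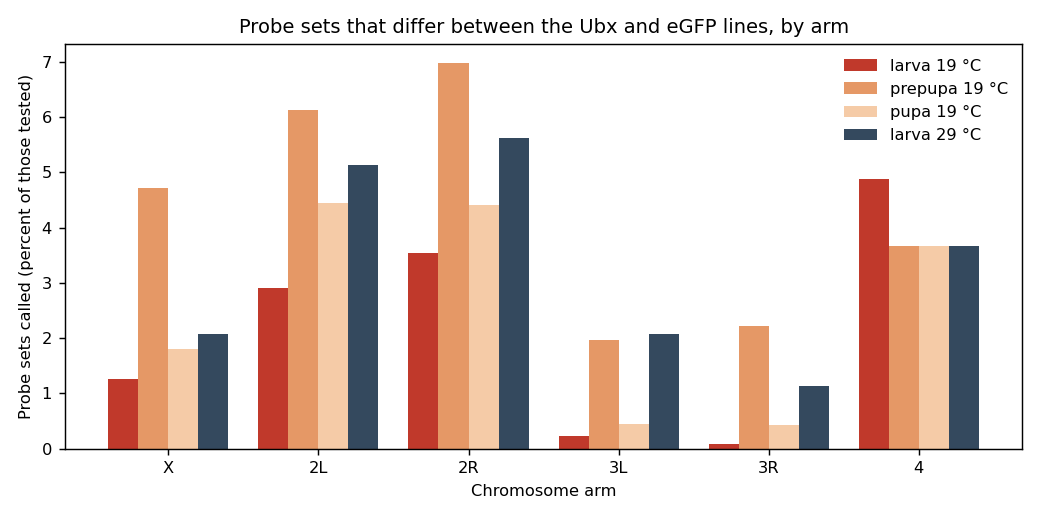
Percent of probe sets called between the Ubx and eGFP lines (vertical axis, from 0) on each chromosome arm, for larvae, prepupae and pupae at 19 °C and larvae at 29 °C. For larvae at 19 °C the bars stand at 2.91% on 2L and 3.54% on 2R, against 0.223% on 3L and 0.0875% on 3R.

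Most of the differences had the same sign at other stages, and many were called again. These comparisons use arrays of their own and share none with the larval one at 19 °C. Of the 264 calls, 252 (95.5%) had the same sign in larvae at 29 °C, 227 (86%) in prepupae at 19 °C and 242 (91.7%) in pupae at 19 °C. Among all probe sets, 55.1% shared a sign between larvae at 19 °C and at 29 °C. Called in the same direction were 176 in larvae at 29 °C, which is 66.7% of the 264 and 33.8% of the 520 calls there. In prepupae at 19 °C they were 117, or 44.3% of the 264 and 17% of the 689 calls there, and in pupae at 19 °C they were 137, or 51.9% of the 264 and 36.6% of the 374 calls there. The opposite direction was called for 2, 2 and 3 of the 264, in that order of comparisons. Both prepupae and pupae at 19 °C repeated 81 of the calls, 36 higher and 45 lower, and 56 were called in the same direction in all 5 other comparisons of the lines, which include prepupae at 29 °C (14.2% of all probe sets called) and pupae at 29 °C (8.89%). In none of the 5 were 30 of the 264 called in the same direction. Because the 264 were selected on their larval values, their median size of 0.429 is not an unbiased base for the medians toward the larval direction, which were 0.382 in larvae at 29 °C, 0.233 in prepupae at 19 °C and 0.276 in pupae at 19 °C.

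**Figure D4:**
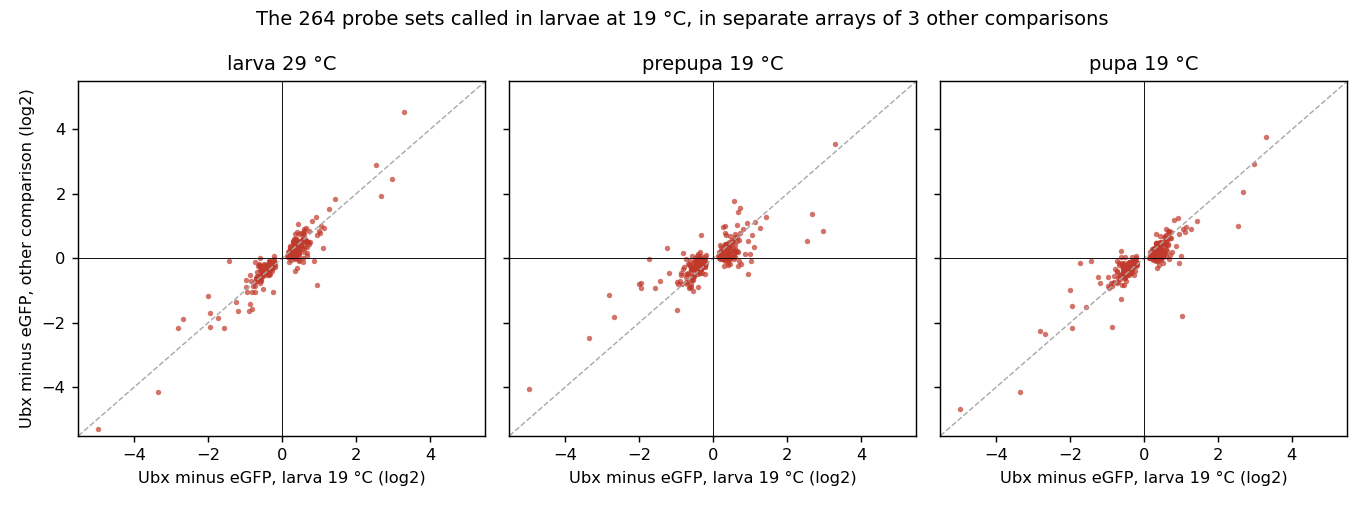
The 264 probe sets called in larvae at 19 °C, with the difference there (Ubx minus eGFP, log2, horizontal axis) against the difference in larvae at 29 °C, prepupae at 19 °C and pupae at 19 °C (vertical axis). The dashed line marks equal differences, and 252, 227 and 242 of the points have the same sign on both axes.

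The size of the recurring differences varied from gene to gene. Cyp4p2 differed by -5.27 in larvae at 29 °C, -4.04 in prepupae at 19 °C and -4.67 in pupae at 19 °C. GstT3 differed by 0.93, 1.12 and 0.97 in the same comparisons, CG30428 by -1.06, -0.79 and -0.91, and lncRNA:CR43242 by 1.15, 0.92 and 1.19. All of these values were called. Of the receptor gene mthl8, the brighter probe set differed by -2.11, -0.93 and -2.15, and its interaction between larvae and prepupae at 19 °C was called (adjusted p = 0.0296). Trim9 differed by -1.63, -0.46 and -0.75, and Rab9 by -1.03, -0.32 and -0.53, with interactions between larvae and prepupae at 19 °C for Trim9 (adjusted p = 0.00961) and Rab9 (adjusted p = 0.0496).

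The change of the line difference itself was tested as an interaction. Between larvae at 19 °C and prepupae at 19 °C, 142 probe sets (0.757%) had a different line difference, 52 of them among the 264. Between larvae and pupae at 19 °C there were 34 (0.181%), 17 of them among the 264. Each interaction contains the larval difference on which the 264 were selected, so nothing is read from these shares. Most genes named for an interaction were also picked by the size of that larval difference, which favours an interaction in its direction. CG15236 differed in larvae at both temperatures (-1.72 at 19 °C and -1.84 at 29 °C) but by 0.00 in prepupae and -0.13 in pupae at 19 °C, with interactions of -1.71 (adjusted p = 3.01e-08) and -1.58 (adjusted p = 7e-07). The gene swi2 differed by -1.23 in larvae and by 0.33 in prepupae at 19 °C (adjusted p of the interaction 7.55e-06). CG16820 turned over, at 1.02 in larvae and -1.80 in pupae at 19 °C, an interaction of 2.82 (adjusted p = 6.75e-16). Spn47C, at 0.76 in larvae and -0.16 in prepupae, had an interaction of 0.92 (adjusted p = 0.0149).

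**Figure D5:**
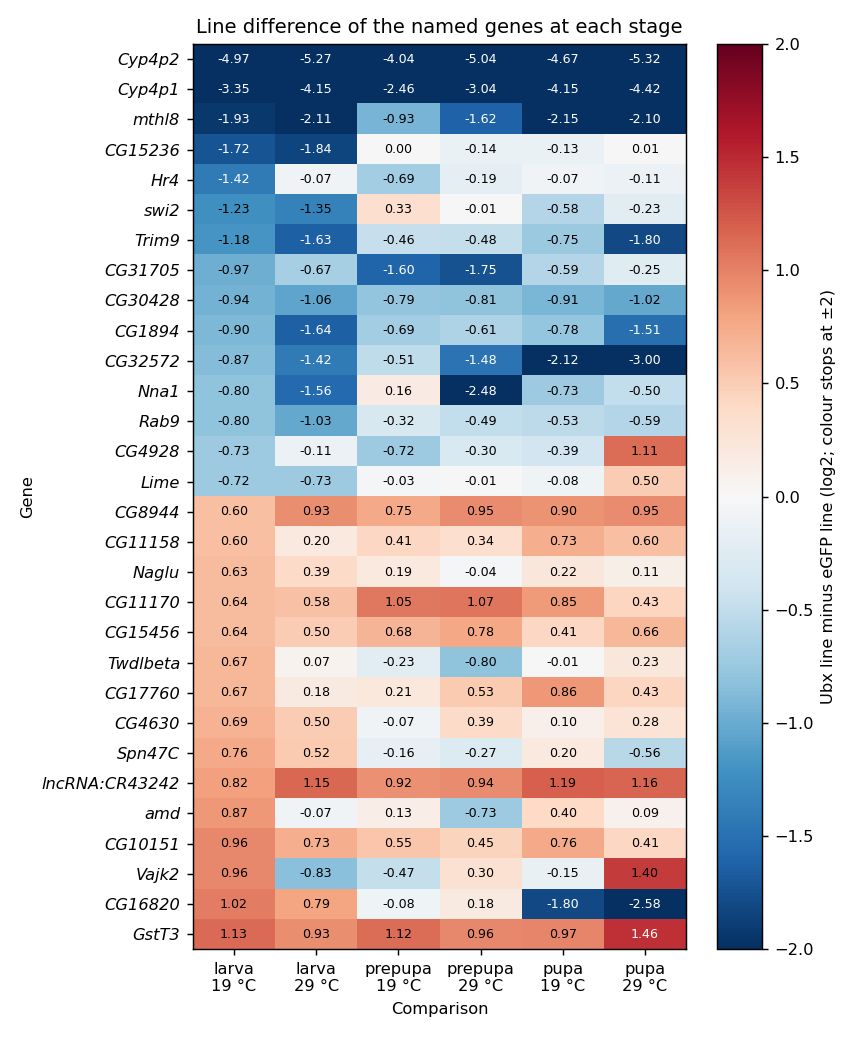
Line difference (Ubx minus eGFP, log2, written in each cell and as colour that stops at ±2) of the 15 genes with the largest fall and the 15 with the largest rise in larvae at 19 °C, across the 6 comparisons of the lines. Cyp4p2, Cyp4p1 and GstT3 keep their sign in all 6, while CG16820 is 1.02 in larvae and -1.80 in pupae at 19 °C.

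Against larvae at 29 °C, 83 probe sets (0.442%) had a different line difference, of which 68 were not called at 19 °C. The count was 125 without eGFP replicate 2 and 43 without eGFP replicates 3 and 4 together. In larvae at 29 °C, 136 probe sets were called with a change of at least 1.5-fold (0.725%), and 60 of these (44.1%) were already called in the same direction at 19 °C with the transgene off. The driver gene nab, 0.08 at 19 °C, was 0.71 at 29 °C (interaction -0.63, adjusted p = 0.000384). The cuticle gene Vajk2 turned over, at 0.96 at 19 °C and -0.83 at 29 °C (interaction 1.79, adjusted p = 0.000124). Its difference at 19 °C leaned on eGFP replicates 3 and 4, and without both it was 0.60 and not called (limma adjusted p = 0.506). The gene amd was 0.87 at 19 °C and -0.07 at 29 °C (interaction 0.94, adjusted p = 0.00558). For Cyp4p1 the difference was -3.35 at 19 °C and -4.15 at 29 °C (interaction 0.80, adjusted p = 0.000491).

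The listed genes that pattern the wing did not pass the test at 19 °C. None of 24 wing pouch and hinge genes was called by limma (2 at an unadjusted p under 0.05), and their median difference was -0.05, beside 0.005 over all genes and 1.56% of genes called. In the interaction with temperature 11 of the 24 were called, beside 64 of all 11953 genes (0.535%), and the list's median was -0.233 at 29 °C. vg, for example, differed by -0.01 at 19 °C and -0.45 at 29 °C (interaction 0.44, adjusted p = 0.000444). None of the 19 Hox genes and genes repressed by Ubx in the haltere was called at 19 °C (1 at an unadjusted p under 0.05), and 5 were called in the interaction. The 24 Dpp signalling genes had no call at 19 °C, none at an unadjusted p under 0.05, and 3 in the interaction. The Hedgehog and anterior-posterior (17 genes), Notch (18), EGFR and vein (18), notum and body wall (16) and proneural (20) lists had no call either, with 2, 0, 3, 2 and 1 genes at an unadjusted p under 0.05. The mean level of the EGFR and vein list was 9.29 to 9.33 on the Ubx arrays and 9.39 to 9.44 on the eGFP arrays, without overlap, and its median difference was -0.081. This was not particular to that list. The P450 list did not overlap either, nor did the glutathione S-transferase list, at 7.18 to 7.21 on the Ubx arrays and 7.14 to 7.17 on the eGFP arrays. No test was made on list levels.

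The listed genes of basic cell function did not pass the test either, apart from the calls named above. Genes of this kind outside the lists were called, such as mTor (-0.365) and Cox11 (0.355), named here after their values were seen. No call was made among 74 oxidative phosphorylation genes, 41 cytoplasmic ribosomal protein genes, 40 proteasome genes, 34 cell cycle genes, 12 heat shock proteins and cognates, or 20 growth, insulin and Hippo genes, with 3, 1, 0, 3, 0 and 0 at an unadjusted p under 0.05. There was no call among 47 odorant-binding protein genes (5 at an unadjusted p under 0.05), 28 gut protease genes (1), 17 immune response genes (1), 7 sex-biased genes (0) and the 4 transgene and line genes (0). Over 33 lists with 905 different genes, 13 genes were called and 26 lists held none. The 567 genes of those 26 lists had 33 members (5.82%) at an unadjusted p under 0.05, against 7.7% of all genes.

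Markers of other cell types that a dissected disc can carry were also read. In bulk samples such as these, fewer cells of a type and less RNA per cell cannot be told apart. No listed haemocyte (20), fat body (7), adepithelial myoblast and muscle (19), tracheal (18), neuron and glia (21) or salivary gland (21) gene was called, with 4, 0, 3, 0, 0 and 0 at an unadjusted p under 0.05. The haemocyte list had a median difference of 0.152, and the mean level of the list was 6.72 to 6.98 on the Ubx arrays and 6.66 to 6.94 on the eGFP arrays. The phagocyte receptor gene NimC1 read 5.66, 5.96, 6.28 and 6.00 on the Ubx arrays, against 5.60, 5.54, 5.24 and 5.41 on the eGFP arrays (difference 0.52, adjusted p = 0.0909), and without Ubx replicate 1 it was called (adjusted p = 0.0345). NimC1 was called higher in prepupae (0.58) and pupae (0.89) at 19 °C and in prepupae (0.78) and pupae (0.91) at 29 °C. In larvae at 29 °C it was 0.28 and not called. The haemocyte markers Hml and Pxn were called in none of these comparisons. The fat body list ran from 6.57 to 7.17 on the Ubx arrays and from 6.65 to 7.06 on the eGFP arrays. Myoblast and muscle genes averaged 6.64 to 6.70 on the Ubx arrays and 6.56 to 6.77 on the eGFP arrays, and the tracheal, neuron and glia, and salivary gland ranges overlapped between the lines as well. The part of such cells in the line difference was not tested.

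Ecdysone, the steroid hormone whose pulses time the move from larva to pupa, acts through a nuclear receptor and a cascade of transcription factor genes. Of 28 measured response genes 1 was lower and none higher (3.57%, beside 1.56% of all genes), with a median difference of -0.058 and 5 members at an unadjusted p under 0.05. The call was Hr4, a nuclear receptor gene of the cascade, which read 4.65, 6.18, 6.18 and 6.43 on the Ubx arrays, against 6.55, 5.96, 8.56 and 8.07 on the eGFP arrays. The lines overlapped, since eGFP replicate 2 was below 3 Ubx arrays, while eGFP replicates 3 and 4 were well above all others. The difference was -1.42 (SE 0.34, adjusted p = 0.015). In fits to the 8 arrays alone (adjusted p = 0.444) and to the 16 larval arrays alone (adjusted p = 0.319) Hr4 was not called. Leaving out Ubx replicate 1 (adjusted p = 0.211), eGFP replicate 3 (adjusted p = 0.214) or eGFP replicate 4 (adjusted p = 0.156) ended the call, and without eGFP replicates 3 and 4 together the difference was -0.39 (adjusted p = 1). The remaining 2 probe sets of Hr4 gave 0.07 and -0.11.

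Several other members of the cascade had their highest value on eGFP replicate 3, and those given here were chosen after their values were seen. Hr3 read 3.25, 3.23, 3.50 and 3.54 on the Ubx arrays, against 3.51, 3.42, 6.05 and 3.53 on the eGFP arrays, so that 1 array stood apart (adjusted p = 0.582). Cyp18a1, which inactivates ecdysone, read 5.79, 5.46, 5.85 and 5.80 on the Ubx arrays, against 6.25, 5.86, 7.41 and 6.19 on the eGFP arrays (adjusted p = 0.237). Blimp-1, an ecdysone-induced repressor, reached 10.12 on eGFP replicate 3 and 9.57 on eGFP replicate 4, with 8.11 to 9.14 on the Ubx arrays (adjusted p = 0.179). By contrast ftz-f1, a nuclear receptor gene that is expressed as the hormone falls, was lowest on eGFP replicates 3 and 4. It read 5.42, 4.75, 5.25 and 5.14 on the Ubx arrays, against 5.46, 5.64, 4.10 and 4.41 on the eGFP arrays (adjusted p = 0.959). Of the 28 response genes, 15 (53.6%) had their highest value of the 8 arrays on eGFP replicate 3, against 14.5% of all genes. On eGFP replicate 4 the count was 2 (7.14%), against 11.8% of all genes. The cuticle genes amd, Vajk2 and Twdlbeta were lowest on eGFP replicates 3 and 4, as were ftz-f1 and some rises outside the cuticle, such as CG16820 and CG10151. The part of hormone timing in the difference of these cuticle genes was not tested. Without both of these arrays, 177 probe sets were called in place of 264, 79 higher and 98 lower, of which 113 lay on chromosome 2 and 7 on chromosome 3. Cyp4p2 then differed by -4.97 and Cyp4p1 by -3.22. Besides Hr4 and Vajk2, calls lost without both arrays were those of Twdlbeta (0.29, adjusted p = 0.818), Cpr49Ah (0.29, adjusted p = 0.978), CG17760 (0.44, adjusted p = 0.896), CG4928 (-0.43, adjusted p = 0.647) and Ugt317A1 (0.27, adjusted p = 0.424). The calls of GstS1 (-0.15, adjusted p = 0.228), mRpS18B (0.18, adjusted p = 0.249), Nna1 (-0.76, adjusted p = 0.0875) and Spn47C (0.69, adjusted p = 0.0508) were lost too.

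Where a gene had several probe sets and any call, most often only some of them were called. Called and uncalled probe sets were not tested against each other. Some lay close, such as those of Sod3 (-0.28 and -0.15), picked after its values were seen. Of 1106 genes with more than 1 probe set, 40 had at least 1 called. In 6 of them every probe set was called in the same direction, in 33 only some were called, and in 1 the calls went both ways. That gene was Ptp10D, a receptor tyrosine phosphatase gene chosen after its values were seen. One of its probe sets read 7.70, 7.93, 7.45 and 7.47 on the Ubx arrays, against 6.62, 6.21, 6.14 and 6.45 on the eGFP arrays (difference 1.28, SE 0.17, adjusted p = 8.06e-07). The other read 7.36, 7.15, 7.66 and 7.63 on the Ubx arrays, against 8.26, 8.11, 8.11 and 8.17 on the eGFP arrays (difference -0.71, adjusted p = 0.00576). Both signs were seen again in pupae at 19 °C, with 0.90 and -0.60.

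Further genes of this kind, also chosen after their values were seen, produce many transcript forms. For the splicing regulator gene mbl, 2 of 6 probe sets were called. The larger read 7.45, 7.83, 7.53 and 8.09 on the Ubx arrays, against 5.76, 6.63, 6.01 and 6.77 on the eGFP arrays (difference 1.43, SE 0.19, adjusted p = 8.06e-07), while the lowest of the 6 gave -0.31 (adjusted p = 0.636). For lola, a transcription factor gene with many alternative last exons, 2 of 15 probe sets were called. The larger read 8.15, 8.52, 8.41 and 8.67 on the Ubx arrays, against 7.24, 7.32, 7.42 and 7.57 on the eGFP arrays (difference 1.05, SE 0.11, adjusted p = 4.75e-09), and the lowest of the 15 gave -0.38 (adjusted p = 0.06). The polarity kinase gene aPKC fell by 0.70 in its brighter probe set (adjusted p = 2.88e-05), with 0.06 in a dim one. In aPKC the fall was -0.72 in prepupae and -0.74 in pupae at 19 °C.

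Of the 75 calls of at least 1.5-fold, 51 had 1 gene symbol, 2 had several and 22 had none. The unnamed ones included some of the largest differences. Probe set 1633998_s_at read 12.19, 12.05, 11.94 and 11.95 on the Ubx arrays, against 8.80, 8.77, 8.73 and 8.63 on the eGFP arrays (difference 3.30, SE 0.10, adjusted p = 1e-27), and differed by 3.55 in prepupae and 3.75 in pupae at 19 °C. Probe set 1640242_s_at read 6.56, 6.36, 6.42 and 6.37 on the Ubx arrays, against 9.22, 9.33, 9.20 and 9.19 on the eGFP arrays (difference -2.81, SE 0.12, adjusted p = 4.11e-22). Neither showed any overlap between the lines.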

How the data were processed

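RNA of 48 samples was hybridised to Affymetrix Drosophila Genome 2.0 arrays. The authors deposited log2 values, and the submitters' processing notes name RMA. The sources used here do not give its version. The base of the logarithm follows from the values, which span 2.37 to 14.6. Within the 8 arrays compared here, value distributions differed by at most 0.01737 (Kolmogorov-Smirnov distance). That of Ubx replicate 1, the only one of the 8 compared with arrays of other sets, differed from them by at least 0.07848. All 48 columns were mapped to samples. The table lists 18952 probe sets, and 18769 remained for testing once 183 controls were removed.

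A mean per group was fitted to all 48 arrays with limma 3.58.1 (lmFit, eBayes) in R 4.3.3 (degrees of freedom: residual 36, prior 5.16). Two-sided p-values received Benjamini-Hochberg adjustment over the 18769 probe sets and a threshold of 0.05. Replicates are labelled as biological, and the number of arrays limits the precision. Deviations of same-numbered arrays of the lines correlated at 0.1722, -0.1197, 0.07653 and 0.006694, so the numbers were not taken to pair them. Each gene was represented by its brightest probe set across the series. Symbols came from the supplied annotation and chromosome arms from a Release 6 gene table. The margin of 0.5 above the array median was chosen after the values were seen. The procedure was tested on simulated data.

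The members, 33 gene lists and tests were chosen with earlier results of these data known. Named genes were nab, Antp, the 15 largest rises and 15 largest falls of at least 1.5-fold, up to 3 called members per list, and cell type markers. Others are stated as chosen after their values were seen. Alternatives changed the arrays used, scaling, brightness filter, variance prior, replicate block and probe sets per gene, and left out each array in turn.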

Additional observations from a re-analysis of the deposited data

Results flagged for a closer look

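Among 120 groups of 4 arrays of the named genes, 4 held an array far from the others by Dixon's criterion, where about 6 are expected at 1 in 20. They were Hr4 on Ubx replicate 1 at 4.65, GstS1 on Ubx replicate 3 at 12.57, ap on eGFP replicate 4 at 11.36, and nab on Ubx replicate 4 at 8.44.

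The line difference of named genes changed between larvae at 19 °C and another comparison, by the limma interaction, in 30 cases. All values are the difference in larvae at 19 °C minus that in the other comparison, on the log2 scale. Most of these genes were picked by the size of their difference in larvae at 19 °C, which favours an interaction in that direction. Against larvae at 29 °C they were 0.80 for Cyp4p1, 0.44 for vg, -0.63 for nab, 0.94 for amd and 1.79 for Vajk2. Against prepupae at 19 °C, the larval difference was the more negative one for Cyp4p2 (-0.93), Cyp4p1 (-0.89), mthl8 (-1.0), CG15236 (-1.71), swi2 (-1.56), Trim9 (-0.73), Nna1 (-0.96), Rab9 (-0.48), Lime (-0.68), Cyp4e2 (-0.64), GstS1 (-0.30) and Cpr49Ah (-1.22). It was the more positive one for egr (0.53), Twdlbeta (0.90), CG4630 (0.76), Spn47C (0.92), amd (0.74), Vajk2 (1.43) and CG16820 (1.11). Against pupae at 19 °C the values were 0.80 for Cyp4p1, -1.58 for CG15236, 1.25 for CG32572, 3.33 for the fat body gene Fbp2, 0.59 for CG4630 and 2.82 for CG16820. Fbp2 itself was -0.45 in larvae and -3.78 in pupae at 19 °C.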

How the results depend on the processing

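Over the alternatives that give it, the count of called probe sets ran from 177 (without eGFP replicates 3 and 4) and 213 (only the 8 arrays) up to 279 (without eGFP replicate 2), against 264, and no called named gene changed sign under the alternatives run for it. Of the genes not called, nub, Antp, btl, Lsp2 and Hml changed sign under 1 alternative each. The replicate number as a block gave 249 calls and moved no count of calls by over 1.5 times, though the calls of mRpS18B (adjusted p = 0.085) and CG17760 (adjusted p = 0.124) were lost, and 2 of the 4 Ubx arrays correlated best with their own number. Of 38 called named genes 24 kept the call under each of the 16 or 17 alternatives that could be run for the gene, and of 22 not called 21 stayed so. Leaving out 1 array at a time gave 6 to 25 calls on chromosome 3, 17 to 26 on X, and 61 to 125 for larvae at 19 °C minus larvae at 29 °C. The brightness filter, the median of means 4.59, gave 14 calls on chromosome 3. Scaling all 48 arrays together by quantiles gave 127 higher and 127 lower calls. Leaving out eGFP replicates 3 and 4 together, chosen after seeing the data, gave 79 higher calls, 18 on X, 8 in the gene lists, and 43, 89 and 18 in the interactions with larvae at 29 °C, prepupae at 19 °C and pupae at 19 °C, with fewer arrays in the fit. The cause of the other shifts was not tested. Genes near the array median, such as Cyp4p2 and CG15236 in the Ubx line, are limited by signal over background.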

Other observations

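The genes given here lie outside the lists and the leading changes and were picked after their values were seen, so they stand for no group. The gene fog, for a secreted ligand of cell shape change, read 7.53, 7.39, 7.51 and 7.53 on the Ubx arrays, against 8.35, 8.19, 8.32 and 7.84 on the eGFP arrays (difference -0.68, SE 0.11, limma adjusted p = 3.96e-05). The immunoglobulin-family adhesion gene hbs read 8.46, 8.66, 8.60 and 8.70 on the Ubx arrays, against 8.96, 8.94, 9.35 and 9.12 on the eGFP arrays (difference -0.49, adjusted p = 8.43e-06). The neurogenic gene bib, a membrane channel-like protein, fell by 0.56 (adjusted p = 0.000619). Both probe sets of beat-IIIc, of a family of axon guidance proteins, were higher in the Ubx line, by 0.46 (adjusted p = 0.000809) and 0.40 (adjusted p = 0.00558). The gene vig, for an RNA-binding protein found with RNA interference complexes in Drosophila, fell by 0.52 (adjusted p = 3.08e-08), with -0.59 in pupae at 19 °C.

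On chromosome 4 the 4 called probe sets were those of CG33978 (0.57), Hcf (0.54), Rnf11 (0.39) and CG31999 (-0.58). The second probe set of CG33978 gave 0.02.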
